A study of Mus musculus with 4 samples.

Results

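Activated conventional CD4 T cells were taken here as the cells of the CD45-positive lung libraries that had RNA of a CD3 chain and of Cd4 together with at least 1 activation gene, and no RNA of genes that mark other lymphocytes. Members were chosen by detected RNA: a cell belonged when it held at least 1 unique molecular identifier (UMI, a tag that counts 1 captured RNA molecule) of Cd3d, Cd3e or Cd3g, of Cd4, and of Cxcr6, Tnfrsf4 or Icos. It also had to hold none of Cd8a, Cd8b1 (CD8 T cells), Foxp3 (regulatory T cells) or Cd79a (B cells). In all, 299 of 15023 CD45-positive barcodes met the rule, 141 at 0 Gy and 158 at 4 Gy, out of 25315 barcodes in the whole series. Conventional here means only that no Foxp3 UMI was seen, and activated means only that a UMI of Cxcr6, Tnfrsf4 or Icos was seen.

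The mice were female C57BL/6 animals, 8 weeks old, and every animal of both groups carried lung tumours from 150000 HKP1 cells given into the tail vein. HKP1 is a mouse lung adenocarcinoma line lacking Trp53, so the tumour cells and not the T cells lack p53. After grouping on day 6, 1 group was mock-treated (0 Gy) and the other had 4 Gy to the lung on each of 3 days, from day 10 until day 12. The lungs of 4 mice in each group were pooled, collected between 24 and 48 h after irradiation ended, and sorted for live (DAPI-negative) CD45-positive cells before 10x Genomics 3′ sequencing, which gave 1 library for each dose. Values of single mice therefore cannot be separated, no replicate exists, and no test was made: each comparison gives the values at 0 Gy and 4 Gy, followed by the ratio of 4 Gy to 0 Gy with its exact 95% limits in brackets. Such limits cover counting error alone and carry nothing of the spread between mice or library preparations.

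A CD4 T cell is activated when its receptor meets peptide on MHC class II together with costimulation, after which it loses lymph node homing molecules and the transcription factors of the quiescent state and gains receptors for entry into tissue. ICOS and OX40 (the product of Tnfrsf4) are costimulatory receptors that appear on activated CD4 T cells, and CXCR6 is a chemokine receptor of T cells that lodge in tissues such as the lung. Helper cells then differ in the cytokines they make, with T-bet, GATA3, RORγt and BCL6 as the regulators of the Th1, Th2, Th17 and follicular programmes.

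The libraries held 5415 and 9608 barcodes with 24045901 and 36423571 UMIs, at 0 Gy and 4 Gy, and a median of 3096 and 2606 UMIs per barcode. Members held 705670 and 643612 UMIs, with a median of 3652 UMIs per member (707 to 24952) at 0 Gy and 3256 (522 to 26925) at 4 Gy. The 10% of members with the most UMIs supplied 31.7% and 26.5% of these UMIs. Between the libraries 10 barcodes were shared, none of them by members of both, and 1 member at 4 Gy had a barcode that also occurred in the CD45-negative library of that dose.

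The label was checked against genes that the rule did not use. Trac, the constant region of the T-cell receptor α chain, was detected in 132 of 141 members at 0 Gy and 129 of 158 at 4 Gy, and Trbc2, a constant region of the β chain, in 132 and 146. The γδ T-cell gene Trdc was found in 6 and 2 members, Tcrg-C1 in 2 and 2 and Tcrg-C2 in 3 and 4, while Tcrg-C4 was at 0 in both. A UMI of any of 8 γδ T-cell markers was found in 13 members at 0 Gy and 10 at 4 Gy, at 28.3 and 26.4 CPM in sum. Cd8a, Cd8b1, Foxp3 and Cd79a were at 0 by construction. RNA of other lineages was nevertheless present. A UMI of Trdc, Ncr1, Klrb1c (natural killer cells), Cd79b, Ms4a1 (B cells), Lyz2, Csf1r (myeloid cells) or Siglech (plasmacytoid dendritic cells) was found in 48 members at 0 Gy and 50 at 4 Gy. These members were deep, with a median of 5765 and 4039 UMIs, and held 52.9% and 42.0% of all member UMIs. Lyz2 alone was found in 37 and 38 members, which is 26.2% and 24.1% of them, against 19.8% and 21.2% of B cells. Free RNA and cells captured together cannot be told apart from these values. The share and the main differences between the doses are therefore also given without these members. That left 93 members with 332227 UMIs at 0 Gy and 108 with 373154 at 4 Gy. In the text these are called members without other-lineage UMIs, which refers only to the genes just listed. Over wider marker lists, a myeloid UMI was found in 98 of 141 members at 0 Gy and 92 of 158 at 4 Gy. A UMI of the B-cell list was found in 88 and 94 members. Both numbers exceed the members left out, so that some of those kept held UMIs of these wider lists.

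Activated conventional CD4 T cells made up a smaller part of the CD45-positive cells at 4 Gy. Their share was 2.60% (exact binomial 95% interval 2.20% to 3.06%) at 0 Gy and 1.64% (1.40% to 1.92%) at 4 Gy, a ratio of 0.632 [0.500 to 0.798]. Among all Cd4-positive T cells, that is T cells with Cd4 and no Cd8a, Cd8b1 or Cd79a, the share was 51.6% (141 of 273) and 35.8% (158 of 441), a ratio of 0.694 [0.549 to 0.877]. The shares of the sort depend on all other CD45-positive cells, so that the second denominator is the closer one. The intervals of the 2 doses did not overlap for either denominator.

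The rule asks for detected RNA and so depends on depth. Each cell was therefore also thinned to 1000 UMIs at random before the rule was applied, with 213 and 434 shallower cells left out, and the result averaged over 50 draws. The share was then 0.818% and 0.500% of barcodes, a ratio of 0.611 [0.394 to 0.950], and 40.8% and 25.3% of Cd4-positive T cells, a ratio of 0.621 [0.400 to 0.965]. Single draws gave 33 to 55 members at 0 Gy and 32 to 59 at 4 Gy, and 31.5% to 52.4% against 19.0% to 31.7% of Cd4-positive T cells, so that a single draw is imprecise. Without members or comparison cells that held other-lineage UMIs, the ratios were 0.654 and 0.702.

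**Figure D1:**
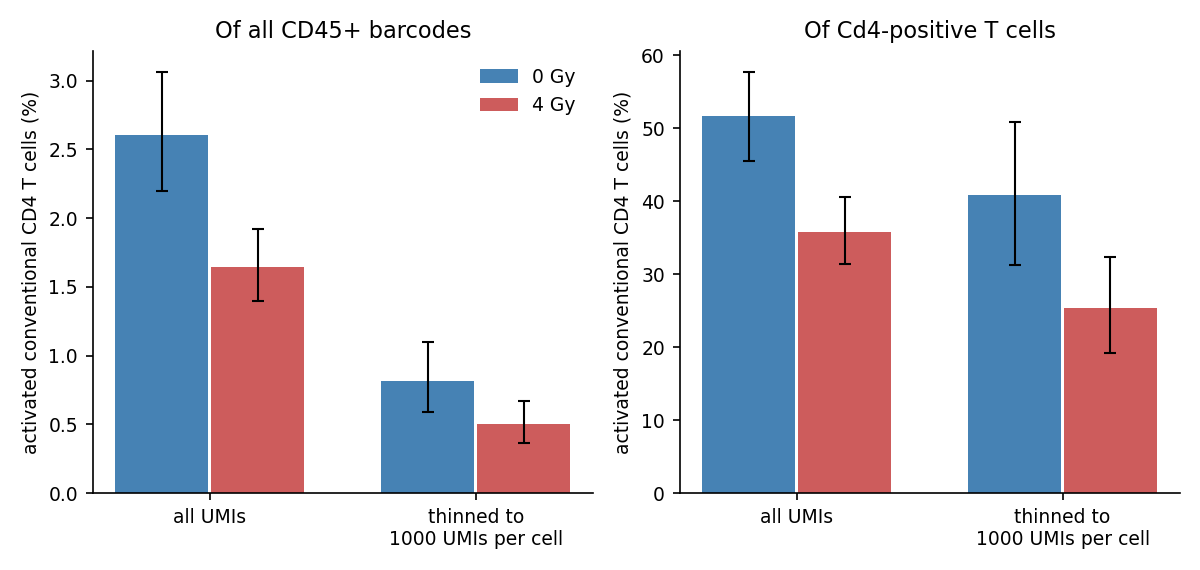
Share of activated conventional CD4 T cells (y axis, percent) at 0 Gy (blue) and 4 Gy (red), of all CD45-positive barcodes (left) and of Cd4-positive T cells (right), with all UMIs and after thinning to 1000 UMIs per cell (mean of 50 draws); bars start at 0 and lines are exact binomial 95% intervals. The bar at 4 Gy is the lower one in all 4 pairs, 1.64% against 2.60% and 35.8% against 51.6% with all UMIs.

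In neighbouring T-cell populations the ratios had intervals that included 1. Other conventional CD4 T cells, which met the same rule but had no UMI of the 3 activation genes, made up 2.07% (112 cells) and 2.55% (245 cells), a ratio of 1.23 [0.982 to 1.56]. Foxp3-positive CD4 T cells made up 0.369% (20 cells) and 0.396% (38 cells), a ratio of 1.07 [0.608 to 1.94]. CD8 T cells with Cxcr6, Tnfrsf4 or Icos made up 4.06% (220 cells) and 3.92% (377 cells), a ratio of 0.966 [0.816 to 1.15]. With 1 library per dose the differences between these ratios could not be tested.

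The members differed among themselves in how they met the rule, and this mix differed between the doses. Values of the 3 activation genes are a description here, since they chose the cells. Cxcr6 was detected in 62.4% (53.9% to 70.4%) of members at 0 Gy and 43.7% (35.8% to 51.8%) at 4 Gy. Tnfrsf4 was detected in 34.8% and 36.7%, and Icos in 71.6% and 72.2%. As a level over all members, UMIs of a gene scaled to a total of 1000000 (CPM), Cxcr6 stood at 581 and 418, Tnfrsf4 at 232 and 382, and Icos at 342 and 331. Members with Icos alone numbered 36 and 59, those with Cxcr6 alone 29 and 21, and those with Tnfrsf4 alone 5 and 19. Members with 2 or 3 of the genes made up 50.4% (71 cells) and 37.3% (59 cells).

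A member just inside the rule held a single UMI of the 3 genes together, and a cell just outside held none. Single-UMI members made up 23.4% (33 cells, 16.7% to 31.3%) at 0 Gy and 41.8% (66 cells, 34.0% to 49.9%) at 4 Gy. Members with 2 to 4 such UMIs numbered 52 and 42, and members with 5 or more 56 and 50. With at least 2 such UMIs asked for, the ratio of the share was 0.480 of barcodes and 0.527 of Cd4-positive T cells, lower than under the rule itself.

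The way in went with the rest of the transcriptome, in both libraries. Members with Cxcr6 alone held 7551 and 6898 CPM of the 18 genes of the Th1 list and 14725 and 13229 CPM of the 29 genes of the chemokine receptor and adhesion list, at 0 Gy and 4 Gy. Members with Icos alone held 2832 and 2688 CPM of the Th1 list and 7855 and 5755 CPM of the adhesion list. The order was the opposite for the 20 genes of the naive and quiescence list, at 2768 and 3449 CPM with Cxcr6 alone and 5636 and 7445 CPM with Icos alone. Members with Tnfrsf4 alone, few at 0 Gy, resembled the Icos members in the naive list, at 6574 and 6404 CPM.

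Against the other conventional CD4 T cells of the same library, the members differed broadly. This is a description and no test, because the rule chose both populations on the same cells. It uses all members, with those holding other-lineage UMIs. In members and other cells, myeloid markers summed to 3741 and 1976 CPM at 0 Gy, and 2891 and 2453 at 4 Gy. Dendritic-cell markers summed to 2253 and 510 CPM, and 1725 and 1392. Macrophage markers stood at 701 and 258, and 311 and 542. Neutrophil markers stood at 1202 and 3809, and 997 and 1731. The part of such RNA in this comparison was not tested. Of 4967 genes with at least 30 UMIs, 427 (8.60%) stood above the other cells by 1.5-fold or more and 83 (1.67%) below them by as much in both libraries, where fold means the ratio of CPM + 10. Folds in this comparison are given for 0 Gy and then for 4 Gy, and the genes named are the highest and lowest of a fixed ranking, in which both libraries count.

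Checkpoint receptors stood out among the genes that were higher. Pdcd1, which encodes the inhibitory receptor PD-1, stood at 164 CPM in members and 14.5 in other conventional cells at 0 Gy, and at 176 and 3.77 at 4 Gy. Ctla4, the inhibitory receptor that competes with CD28, stood at 130 against 7.25 CPM and 140 against 3.77. Lag3, a receptor that binds MHC class II, stood at 96.4 against 7.25 and 158 against 2.52. Of 9 measured checkpoint genes 6 were higher in both libraries, with a list median of 1.30 and 1.41 on the log2 scale, beside 0.22 and 0.15 over all genes.

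Genes of tissue residence and entry were higher as well, 7 of 11 measured residence genes and 15 of 24 measured chemokine receptor and adhesion genes. Rgs1, a brake on chemokine receptor signalling, stood at 204 against 19.3 CPM and 222 against 32.7. S100a4, a calcium-binding protein of motile cells, stood at 917 against 104 CPM and 463 against 78.0, and Ccr2, a receptor for monocyte-attracting chemokines, at 201 against 36.2 and 157 against 18.9. Odc1, the first enzyme of polyamine synthesis, stood at 128 against 12.1 and 134 against 12.6, and Rbpj, the DNA-binding partner of Notch, at 166 against 26.6 and 144 against 23.9. Ctla2a, Serpinb1a, Nrgn, Nrp1, Lgals1 and Ccl4 completed the highest ranks. Ccl17, the first of the ranking, is a dendritic-cell chemokine whose UMIs lay only in members that also held other-lineage UMIs.

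Genes of the resting state were lower, 14 of 18 measured genes of the naive and quiescence list and none higher, with a median of −1.21 at 0 Gy and −0.83 at 4 Gy. Lef1, a transcription factor of naive T cells, stood at 118 CPM against 510 at 0 Gy and 205 against 482 at 4 Gy. Igfbp4 stood at 90.7 against 505 and 191 against 614. Dapl1 stood at 26.9 against 258 and 88.6 against 249, and Pik3ip1, an inhibitor of PI3 kinase, at 36.8 against 157 and 52.8 against 143. Gm37593, St8sia6, S100a8, Rflnb, Ifitm1 and A930005H10Rik were the other lowest genes, of which S100a8 is a neutrophil gene.

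**Figure D2:**
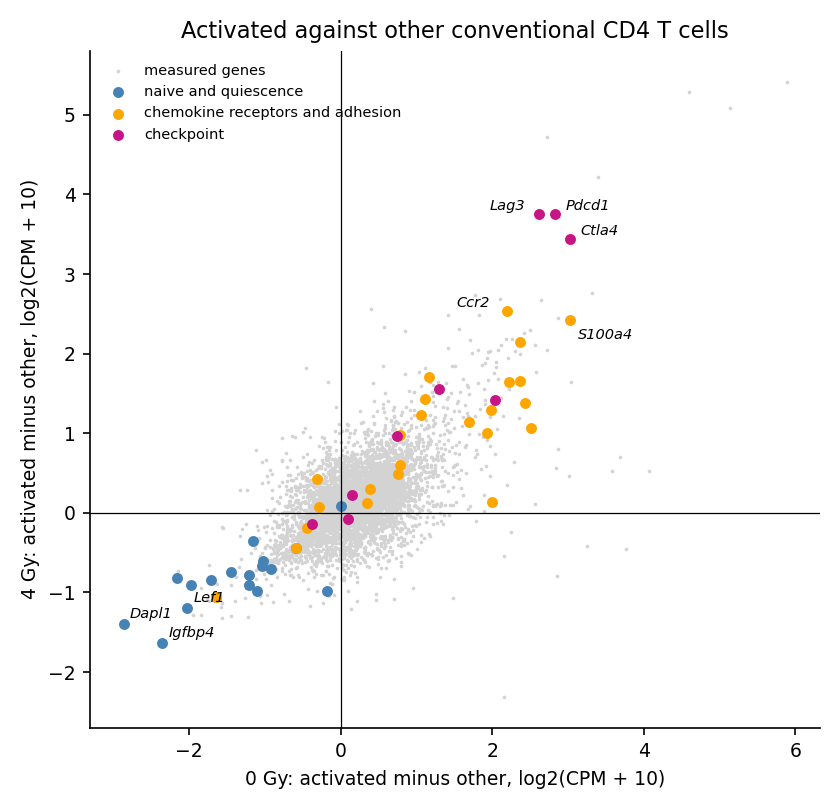
Difference between activated and other conventional CD4 T cells in log2(CPM + 10) at 0 Gy (x axis) and at 4 Gy (y axis), 1 point per measured gene, with 3 gene lists in colour. Checkpoint genes such as Pdcd1, Ctla4 and Lag3 lie at the upper right and naive genes such as Igfbp4 and Lef1 at the lower left, above the diagonal, since their medians are −1.21 at 0 Gy and −0.83 at 4 Gy.

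Foxp3-positive CD4 T cells, the nearest population by the rule, were few (20 and 38 cells), so that their values are imprecise. Of 3891 measured genes 122 (3.14%) were higher by that fold and 154 (3.96%) lower in the activated conventional cells in both libraries. The regulatory list without Foxp3 was lower in 7 of 8 measured genes. Ikzf2, which encodes Helios, stood at 143 CPM in members against 1567 at 0 Gy and 221 against 1102 at 4 Gy. Il2ra, the interleukin 2 receptor α chain, stood at 29.8 against 236 and 28.0 against 291, and Tnfrsf9, which encodes 4-1BB, at 42.5 against 471 and 52.8 against 419. Tcf7, the factor TCF1 of naive and memory T cells, stood higher in the members, at 231 against 40.6 and 328 against 53, as did Tnfsf8, the ligand of CD30, at 128 against 8.12 and 141 against 0. The first ranks also held genes of other lineages, C1qa (macrophages) at 126 against 0 and 91.7 against 0 CPM, Gzma at 170 against 8.12 and 312 against 10.6, Mgl2 (macrophages and dendritic cells) at 80.8 against 0 and 99.4 against 5.30, and Klrd1 (natural killer and cytotoxic T cells) at 113 against 0 and 99.4 against 10.6. C1qa came from 5 and 3 members and Mgl2 from 6 and 3. Without other-lineage members C1qa stood at 0 and 2.68 CPM, Mgl2 at 3.01 and 2.68, Gzma at 9.03 and 29.5 and Klrd1 at 111 and 50.9. Tbc1d4, Pde7a, Ckb and Serpinb1a were the other highest genes, and Iigp1, Arl5a, Ctla4, Hist1h2an, Gm28112, Hist1h2ap and Pim1 the other lowest.

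Helper subset genes were read as the share of members with a UMI, beside the same share in B cells. That share gives the background of free RNA for genes that B cells lack, but not for Cxcr5, Bcl6 and Ccr6, which B cells express. B cells had a median of 2826 and 2315 UMIs, below that of the members. After thinning to 1000 UMIs per cell the shares were lower throughout. Cd40lg, the CD4 T-cell ligand that licenses B cells and dendritic cells, was seen in 33 members (23.4%) at 0 Gy and 25 (15.8%) at 4 Gy, against 0% and 0.0288% of B cells, and in 6.44% and 5.84% of members after thinning. Its level was 52.4 and 54.4 CPM.

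Gata3 is a regulator of Th2 cells that other T cells also use. It was seen in 58.9% (50.3% to 67.1%) of members at 0 Gy and 46.2% (38.2% to 54.3%) at 4 Gy, against 0.684% and 0.894% of B cells, and in 28.5% and 20.5% after thinning. Its level was 333 and 250 CPM, a ratio of 0.751 [0.611 to 0.922]. No member held a UMI of the Th2 cytokine Il4, which allows up to 2.13% and 1.90% of members with such a UMI by a limit of 3 counts. The interleukin 33 receptor gene Il1rl1 was seen in 3 and 7 members.

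Of the Th1 genes, Id2 was seen in 75.2% and 55.1% of members and Nkg7 in 62.4% and 42.4%. Il18r1, a chain of the interleukin 18 receptor, was seen in 51.1% and 40.5% of members (22.2% and 16.6% after thinning), Tbx21, the gene of T-bet, in 17 and 14 members, and Ifng, interferon gamma, in 16 and 19. B cells had a UMI of Tbx21 in 0.812% and 1.18%, and of Ifng in 0.214% and 0.202%. Rora was seen in 39.0% and 34.8% of members. Ccr6, a chemokine receptor of Th17 cells, was seen in 5.67% and 6.96% of members and in 15.3% and 15.1% of B cells, which express it.

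Of the follicular helper genes, Pdcd1 was seen in 27.0% and 30.4% of members, Tox in 39.7% and 35.4% and Maf in 37.6% and 34.8%. Cxcr5, the receptor for entry into B-cell follicles, was seen in 6 and 5 members and Bcl6 in 8 and 10, both at shares below those of B cells. Il21, the follicular helper cytokine, was seen in 5 and 10 members and in no B cell. Ctla4 was seen in 30.5% and 24.1% of these Foxp3-negative members, Ikzf2 in 29.1% and 25.9%, and Il10 in 4 and 7 members. The intervals of the 2 doses overlapped for each of these genes.

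**Figure D3:**
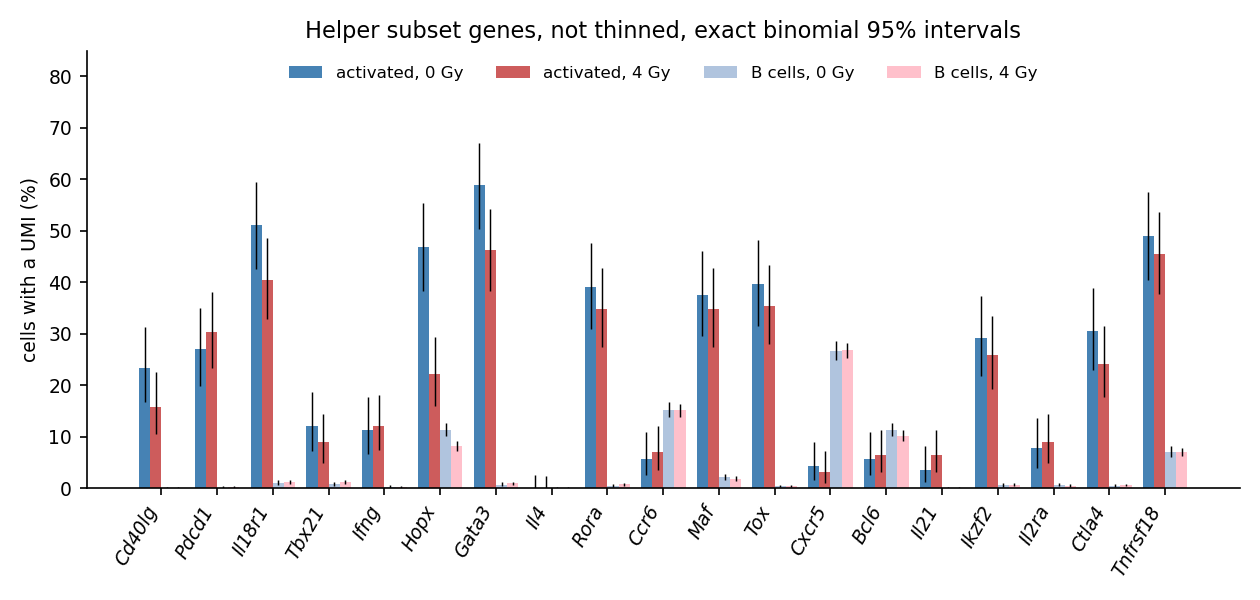
Share of cells with a UMI (y axis, percent, not thinned) for helper subset genes in activated conventional CD4 T cells (dark) and B cells (pale) at 0 Gy (blue) and 4 Gy (red), with exact binomial 95% intervals. Of the genes shown, Gata3 has the highest bars in the activated cells at 0 Gy and 4 Gy, at 58.9% and 46.2%, Il4 is at 0 in the activated cells, and Cxcr5, Ccr6 and Bcl6 are more frequent in B cells.

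Between the doses, 5999 genes had at least 30 UMIs over the members of both libraries. At 4 Gy 309 of them (5.15%) were higher by 1.5-fold or more and 348 (5.80%) lower, with a median log2 ratio of −0.04 over all. Without other-lineage members the counts were 251 and 392 of 3731. In other conventional CD4 T cells 8.93% were higher and 5.19% lower, in Foxp3-positive CD4 T cells 13.9% and 9.47%, and in the CD8 T cells with the activation genes 3.59% and 1.39%. They were highest in the population with the fewest UMIs and lowest in that with the most.

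Genes of the naive and quiescent state stood higher in the members at 4 Gy. Of 17 measured genes of that list 8 were at least 1.5-fold higher and none lower, with a median log2 ratio of 0.50. The list summed to 3677 CPM at 0 Gy and 4984 at 4 Gy. In other conventional CD4 T cells the list was at 7707 and 8044 CPM, with a median of 0.07 and 1 of 19 genes higher. Without other-lineage members 10 of 17 were higher and none lower, with a median of 0.65.

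Satb1, a chromatin organiser of T cells (GRCm38 chromosome 17, 51736187 to 51833290, minus strand), stood at 132 CPM at 0 Gy and 336 at 4 Gy, a ratio of 2.55 [1.99 to 3.28]. It was seen in 36 and 70 members, and its ratio was 2.69 [1.91 to 3.84] without other-lineage members and 1.17 [0.997 to 1.37] in other conventional CD4 T cells. Lef1 stood at 118 and 205 CPM, a ratio of 1.74 [1.32 to 2.32], and Klf3 at 123 and 235, a ratio of 1.90 [1.45 to 2.51]. Il7r, the receptor of the survival cytokine interleukin 7 (chromosome 15, 9505788 to 9530176, minus strand), stood at 340 and 550 CPM, a ratio of 1.62 [1.37 to 1.91]. Igfbp4, Dapl1 and Actn1 were also past 1.5-fold, while Tcf7 (231 and 328 CPM, ratio 1.42 [1.15 to 1.75]) and Ccr7 (113 and 165 CPM, ratio 1.45 [1.08 to 1.97]) were short of it. Foxo1 had the lowest log2 ratio of the list at −0.45, with 90.7 and 63.7 CPM.

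Bcl2, the survival gene that interleukin 7 receptor signalling maintains, stood at 211 and 357 CPM, a ratio of 1.69 [1.37 to 2.09], and 1.81 [1.35 to 2.43] without other-lineage members. In other conventional CD4 T cells it stood at 452 and 525 CPM, a ratio of 1.16 [0.975 to 1.39]. Among members the Bcl2 ratio was 1.85 [1.23 to 2.87] with 1 UMI of the activation genes and 2.03 [1.43 to 2.90] with 2 to 4. With 5 or more it was 1.09 [0.733 to 1.62]. The members of 4 Gy lay between the members of 0 Gy and the other conventional cells in each of Satb1, Lef1, Il7r and Bcl2.

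Genes of tissue entry and motility stood lower more often than higher. Of 25 measured chemokine receptor and adhesion genes 6 were at least 1.5-fold lower and 2 higher, with a median of −0.27, and the list summed to 11942 CPM at 0 Gy and 8917 at 4 Gy. Without other-lineage members 8 of 23 were lower and 1 higher, with a median of −0.30. S100a4 (chromosome 3, 90603771 to 90606045, plus strand) stood at 917 and 463 CPM, a ratio of 0.505 [0.439 to 0.580], in 85 and 67 members. S100a6 stood at 1917 and 1156 CPM, a ratio of 0.603 [0.551 to 0.660], and Vim, the intermediate filament vimentin, at 1200 and 716, a ratio of 0.597 [0.532 to 0.669]. Both S100 genes and Vim are also myeloid genes, and the summed myeloid markers of the members moved the same way, from 3741 to 2891 CPM. Their part in the result was not tested. Without other-lineage members the ratios of S100a4, S100a6 and Vim were 0.477, 0.497 and 0.611.

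The Th1 list was mixed, with 3 of 15 measured genes at least 1.5-fold higher, 2 lower and a median of −0.19, and it summed to 4416 and 4627 CPM. Without other-lineage members 1 of 13 was higher and 4 lower, with a median of −0.40. Cxcr3, the Th1 receptor for the interferon-induced chemokines CXCL9 and CXCL10 (chromosome X, 101731535 to 101734269, minus strand), stood at 315 and 168 CPM, a ratio of 0.533 [0.420 to 0.674], in 80 and 53 members. Hopx, a homeodomain protein of effector Th1 cells, stood at 197 and 74.6 CPM, a ratio of 0.379 [0.267 to 0.529], in 66 and 35 members. It was seen in 46.8% (38.4% to 55.4%) of members at 0 Gy and 22.2% (15.9% to 29.4%) at 4 Gy, in 16.6% and 7.43% after thinning, and in 11.4% and 8.13% of B cells. Id2, an inhibitor of E proteins, stood at 872 and 606 CPM, a ratio of 0.695 [0.611 to 0.791]. Without other-lineage members the ratios of Cxcr3, Hopx and Id2 were 0.462, 0.382 and 0.512. In the other direction Cxcr4, the receptor for CXCL12, stood at 31.2 and 60.6 CPM, a ratio of 1.94 [1.12 to 3.44].

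S100a4, Cxcr3 and Hopx were also lower at 4 Gy in the CD8 T cells with activation genes, where S100a4 stood at 478 and 205 CPM, Cxcr3 at 155 and 87.9 and Hopx at 158 and 99.2. In Foxp3-positive CD4 T cells Cxcr3 stood at 292 and 170 CPM, a ratio of 0.580 [0.349 to 0.961]. The difference between populations was not tested.

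**Figure D4:**
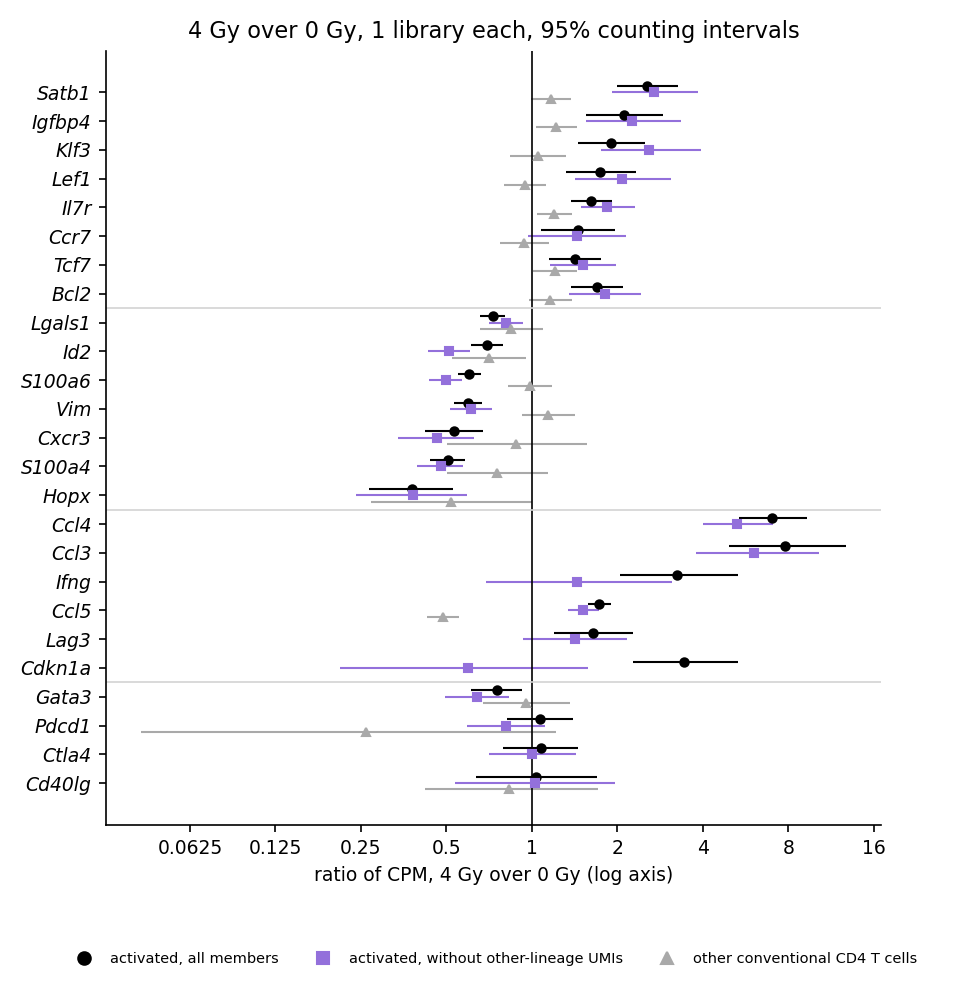
Ratio of CPM, 4 Gy over 0 Gy (x axis, log scale), for genes of the naive state with Bcl2 (top), genes described as lower (second block), effector genes with Cdkn1a (next block) and helper and checkpoint genes (bottom), with exact 95% counting intervals, in all activated members (circles), in members without other-lineage UMIs (squares) and in other conventional CD4 T cells (triangles, left out where the level at 0 Gy was under 12 CPM). Circles and squares of the top block lie to the right of 1 and those of the second block to the left, while those of Cdkn1a lie on opposite sides of 1.

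The mix of members differed between the doses, with single-UMI members more frequent at 4 Gy, and its part in these shifts was not tested. The naive list was also read within classes of activation UMIs, which were chosen after the data were seen. It summed to 5610 CPM at 0 Gy and 7097 at 4 Gy in members with 1 UMI, to 3766 and 5305 with 2 to 4 UMIs, and to 2833 and 2698 with 5 or more. It was thus higher at 4 Gy in the lower 2 classes and not in the highest, where 1 of 11 measured genes was at least 1.5-fold higher and 3 lower, with a median of 0.06, beside 309 higher and 299 lower of all 3228 genes in that class. Satb1 differed in this from the list. It was higher at 4 Gy in every class, with ratios of 2.13, 2.51 and 1.94 from the lowest class to the highest.

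The adhesion list summed to 7213 and 7084 CPM in members with 1 UMI, to 13217 and 8758 with 2 to 4, and to 12980 and 10816 with 5 or more. S100a4 had ratios of 0.894 [0.596 to 1.35], 0.307 [0.220 to 0.422] and 0.666 [0.556 to 0.794] from the lowest class to the highest. Hopx had ratios of 0.243 [0.113 to 0.490], 0.532 [0.257 to 1.04] and 0.421 [0.252 to 0.678], and so was below 1 in every class.

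**Figure D5:**
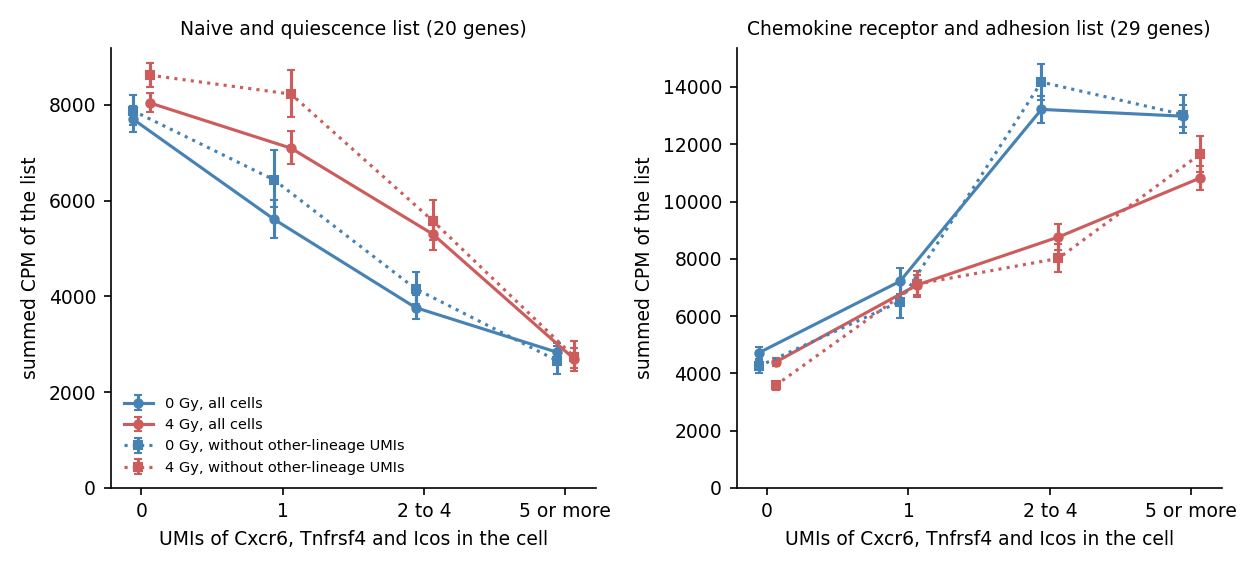
Summed CPM of the naive and quiescence list (left) and of the chemokine receptor and adhesion list (right) by the number of UMIs of Cxcr6, Tnfrsf4 and Icos in a cell (x axis; 0 marks other conventional CD4 T cells), at 0 Gy (blue) and 4 Gy (red), with exact Poisson 95% intervals; solid lines are all cells and dotted lines cells without other-lineage UMIs. The naive list falls from 7707 and 8044 CPM to 2833 and 2698 CPM with more activation UMIs, and the doses are farthest apart in the middle classes.

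Of 13 measured cytotoxic genes 5 were at least 1.5-fold higher and 2 lower at 4 Gy, with a median of 0.15. The median turned to −0.21 without other-lineage members (3 of 8 higher and 2 lower), to −0.38 without members holding 5 or more B-cell and myeloid UMIs (2 of 9 higher and 3 lower), and to -0.0794 as a mean over cells. The summed list was higher at 4 Gy, at 3917 and 5611 CPM over all members. Without other-lineage members it stood at 2369 and 3182 CPM with 1 activation UMI and at 3316 and 4209 with 2 to 4. With 5 or more it stood at 6288 and 9251 CPM. Single chemokine and cytokine genes differed from few members. Ccl4, an inflammatory chemokine (chromosome 11, 83662584 to 83664683, plus strand), stood at 87.9 and 617 CPM, a ratio of 7.02 [5.36 to 9.33]. It came from 8 members at 0 Gy and 18 at 4 Gy, and 1 member at 4 Gy held 101 of the 397 UMIs. Ccl3, a related chemokine, stood at 31.2 and 242 CPM, a ratio of 7.77 [4.96 to 12.8], from 7 and 12 members. Without other-lineage members the ratios were 5.30 [4.02 to 7.09] and 6.05 [3.77 to 10.2]. Ccl5 stood at 1064 and 1837 CPM, a ratio of 1.73 [1.57 to 1.89], although the members with a UMI numbered 59 and 45.

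In other populations these genes did not move alike. Ccl4 stood at 1001 and 370 CPM in the CD8 T cells with activation genes, a ratio of 0.369 [0.338 to 0.403], and Ccl5 had a ratio of 0.682 [0.662 to 0.703] there. In B cells Ccl4 stood at 133 and 96.7 CPM. The defining CD8 genes Cd8a and Cd8b1 were at 0 in the members by the rule, and the summed markers of natural killer cells stood at 490 and 718 CPM. Their part in the result was not tested.

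Ifng stood at 35.4 and 115 CPM, a ratio of 3.25 [2.04 to 5.33], with 1 member holding 41 of the 74 UMIs at 4 Gy. Without other-lineage members it stood at 39.1 and 56.3 CPM, a ratio of 1.44 [0.687 to 3.13], from 9 and 12 members. Tnf stood at 12.8 and 46.6 CPM from 7 and 16 members, and Irf4, a factor induced by receptor signalling, at 12.8 and 37.3 CPM from 9 and 16. Gzmb, the protease granzyme B, stood at 12.8 and 52.8 CPM from 5 and 12 members, but at 18.1 and 16.1 without other-lineage members. Gzma stood at 170 and 312 CPM in all members and at 9.03 and 29.5 CPM without them. Xcl1, at 106 and 28.0 CPM, was lower, but 48 of its 75 UMIs at 0 Gy lay in 1 member.

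Lists of receptor signalling and restraint moved little as a whole. Of 20 measured genes of the response to receptor and costimulation 2 were higher (Irf4 and Tnf) and 2 lower (Cd83 and Lta), with a median of 0.10. Of 12 checkpoint genes 1 was higher, Lag3, at 96.4 and 158 CPM, a ratio of 1.64 [1.20 to 2.27]. Pdcd1 stood at 164 and 176 CPM, a ratio of 1.07 [0.817 to 1.40], and Ctla4 at 130 and 140, a ratio of 1.07 [0.793 to 1.45]. Neither ratio's interval was without 1, which leaves differences up to its limits possible. The difference in Lag3 lay in members with 5 or more activation UMIs, at 148 and 381 CPM, a ratio of 2.57 [1.80 to 3.70], and over all members without other-lineage UMIs it was 1.42 [0.933 to 2.17]. In the same class Ctla4 stood at 169 and 255 CPM, a ratio of 1.51 [1.03 to 2.20].

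The metabolic list was also read by class. Over all members 2 of 16 measured genes of glycolysis and hypoxia were higher and none lower, with a median of 0.22. Tpi1, the glycolytic triosephosphate isomerase, stood at 99.2 and 185 CPM, a ratio of 1.86 [1.38 to 2.54], and Pfkl, a phosphofructokinase, was the other. In members with 5 or more activation UMIs 9 of 11 measured genes were higher and none lower, with a median of 0.87, beside the counts for all genes in that class given above. Without other-lineage UMIs the list summed to 3477 and 5488 CPM in that class and to 3073 and 2315 CPM in members with 2 to 4 activation UMIs.

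Irradiation activates p53, whose best known target is Cdkn1a, the cell cycle inhibitor p21. Of 17 measured p53 targets 2 were at least 1.5-fold higher (Cdkn1a and Ptp4a3) and 1 lower (Pmaip1), with a median of 0.10, which turned to -0.0830 without other-lineage members. Cdkn1a (chromosome 17, 29090976 to 29100727, plus strand) stood at 43.9 and 151 CPM, a ratio of 3.43 [2.27 to 5.32], but from 10 and 14 members, and 70 of the 97 UMIs at 4 Gy lay in 1 member. Without other-lineage members it stood at 36.1 and 21.4 CPM, a ratio of 0.594 [0.210 to 1.58], which turned the direction. In other conventional CD4 T cells it had 1 UMI at 0 Gy and 39 at 4 Gy. These made 2.42 and 49.1 CPM, a ratio of 20.3 [3.44 to 823], with the level at 0 Gy under the 7.25 CPM of 3 UMIs there. In B cells it stood at 34.0 and 82.7 CPM, a ratio of 2.43 [2.13 to 2.78], and in CD8 T cells with activation genes at 22.3 and 78.4, a ratio of 3.52 [2.39 to 5.35]. In these other populations no cells were left out for other-lineage UMIs, and the number of cells holding Cdkn1a is not given here. The comparison with members without such UMIs is therefore uneven. Bax, which permeabilises mitochondria, stood at 176 and 172 CPM, and Mdm2, the p53 ubiquitin ligase, at 52.4 and 55.9. Pmaip1, which encodes NOXA, stood at 42.5 and 14 CPM, a ratio of 0.329 [0.137 to 0.711], from 14 and 8 members.

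Genes of proliferation stood lower at 4 Gy over all members, with 7 of 22 measured genes lower, none higher and a median of −0.45. By class the list summed to 1238 and 1400 CPM with 1 activation UMI, 3594 and 3773 with 2 to 4, and 2528 and 1234 with 5 or more. Only the highest class was thus lower at 4 Gy. There 5 of 8 measured genes were lower and none higher (median −0.96), beside 299 lower of all 3228 genes. Stmn1, a microtubule regulator, stood at 119 and 65.3 CPM, a ratio of 0.548 [0.369 to 0.803], and Mki67 at 69.4 and 48.2, a ratio of 0.694 [0.428 to 1.11], from 14 and 11 members. Without other-lineage members the direction turned, with a median of 0.27, 2 of 13 genes higher and none lower, and Mki67 at 60.2 and 77.7 CPM.

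Over all members, few genes of the interferon and stress lists passed 1.5-fold. The type I interferon list had 1 gene higher and 2 lower of 25, with a median of −0.14, which turned to 0.20 with at least 2 activation UMIs. The interferon gamma list had 3 higher and none lower of 31, with a median of 0.06, and of these 3 the chemokines Cxcl9 and Cxcl10 came from 5 and 2 members at 4 Gy. The immediate early list (22 genes, 1 higher, median 0.01) and the heat shock list (14 genes, none past 1.5-fold, median −0.10) lay near the median of all genes. In members with 5 or more activation UMIs 6 of 20 immediate early genes were higher and 1 lower, with a median of 0.27. Of 25 interferon gamma genes 7 were higher there and none lower (median 0.22), beside 309 higher and 299 lower of all 3228 genes. With 2 to 4 such UMIs the medians of these lists were 0.06 and −0.21, and with 1 they were −0.01 and −0.02. Of 15 measured T-cell identity genes Trbc1 was higher, at 635 and 1035 CPM, and Cd6, a receptor that tunes T-cell activation, lower, at 286 and 160 CPM, a ratio of 0.559 [0.437 to 0.712].

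Outside the lists, a fixed ranking named the 10 highest and 10 lowest genes with at least 30 UMIs, an interval without 1 and UMIs in at least 10 members. Ccl4, Ccl3, Cdkn1a, Gzmb, Ifng and Dapl1 of the highest are described above. Gpm6b, a membrane proteolipid, stood at 15.6 and 60.6 CPM in 8 and 20 members, and at 0 and 75.0 CPM without other-lineage members. With that 0 set to a floor of 3 UMIs the latter is 8.31-fold, which leaves out the counting error of the 28 UMIs at 4 Gy. Over the alternatives its log2 ratio ran from 0.51 to 3.09. Gm44510 (41.1 and 177 CPM), Olfr77 (42.5 and 148 CPM) and the pseudogene Rps18-ps3 (12.8 and 52.8 CPM) were also higher in B cells, at 53.6 and 181, 59.5 and 149, and 21.5 and 57.7 CPM. Reads of Rps18-ps3 cannot be told apart with certainty from those of its parent gene.

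The lowest genes were Apoe, Gmnn, Bmp2k, Fabp5, Ccdc34, Hopx, Tcf4, Cln3, Tm6sf1 and Rn7s1. Apoe, a macrophage lipoprotein, stood at 421 and 107 CPM, but 224 of its 297 UMIs at 0 Gy lay in 1 member, and without other-lineage members it stood at 9.03 and 24.1 CPM. Gmnn, which encodes the replication inhibitor geminin, stood at 51.0 and 12.4 CPM, a ratio of 0.244 [0.0978 to 0.533], in 25 and 8 members, and at 60.2 and 18.8 CPM without other-lineage members. Bmp2k, a kinase, stood at 79.4 and 23.3 CPM, a ratio of 0.294 [0.154 to 0.526], in 28 and 11 members, against a ratio of 1.49 [0.813 to 2.89] in other conventional CD4 T cells. Of the 20 ranked genes 8 of the 10 higher and 8 of the 10 lower kept their direction without other-lineage members, and Cdkn1a, Gzmb, Apoe and Tcf4 did not.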

How the data were processed

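Members and gene lists were chosen with earlier results of these data known. The authors deposited 1 table per library of log2 values, cells by 20640 genes. STAR, Partek, Seurat and mm10 are named per the submitters' processing notes, with roles and versions not given in the sources used here. Tested on the tables, the deposited values proved to be log2(CPM + 1), where CPM scales a cell to 1000000. Their steps gave whole UMIs per cell (tolerance 0.02), from which all values here were computed with Python 3.11.15, numpy 2.4.6 and scipy 1.17.1. Figures were drawn with matplotlib 3.10.9.

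UMIs were summed over the cells of a population in a library and given as CPM. Ratios have exact conditional binomial, levels exact Poisson and shares exact (Clopper-Pearson) 95% intervals. Log2 ratios use CPM + 10, a gene was measured with at least 30 UMIs over both libraries, and called means at least 1.5-fold on CPM + 10. A level of 0 was set to a floor of 3 UMIs per library for folds. Thinned shares are expected values at 1000 UMIs per cell, and the thinned rule used 50 draws. The interval script was tested on simulated data. The 1 library per dose allowed no test. Doublets were scored with Scrublet in scanpy 1.11.5, which marked 235 barcodes at 0 Gy (highest scores up to the expected rate, as its automatic threshold marked 0.203%) and 608 at 4 Gy. Of these, 6 and 7 were members. Marked barcodes were kept and left out only as an alternative.

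Genes were named from the lists (up to 4 per list by size, plus defining genes) and from rankings: the 10 highest and 10 lowest between the doses with an interval without 1 and UMIs in at least 10 members, the 15 highest and 10 lowest against other conventional CD4 T cells, and the 10 highest and 10 lowest against Foxp3-positive CD4 T cells, leaving out genes of the rule, mitochondrial genes and receptor segments. List members named beyond these were chosen after their values were seen. Gene positions are from GENCODE M21 on GRCm38, the assembly of mm10. The tables do not give the strand setting of the counting, so antisense overlap cannot be told apart. Some genes of the lists are not reported here. Of the list genes 11 were not analysed here, among them Il5, Il13 and Il17a. No sequence was printed, since no result rests on one.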

Additional observations from a re-analysis of the deposited data

Results flagged for a closer look

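Of 4753 genes measured in both activated and other conventional CD4 T cells, 8 had ratios of 4 Gy over 0 Gy on opposite sides of 1, both at least 1.5-fold with intervals without 1, and UMIs in at least 10 members of the higher library. The difference was not tested, since each dose has 1 library. Ccl5 had a ratio of 1.73 in activated and 0.485 in other conventional CD4 T cells, and Gzma of 1.84 and 0.487. Both are genes of cytotoxic lymphocytes, and without cells holding other-lineage UMIs the ratios of Ccl5 were 1.52 and 0.156. Ikzf2 had ratios of 1.54 and 0.272, which were 1.35 and 0.247 without such cells. Its ratio in activated cells was 4.47 [2.13 to 10.8] with 1 activation UMI. With 2 to 4 such UMIs the ratio was 1.35 [0.827 to 2.21] and with 5 or more 1.11 [0.736 to 1.67], both with limits that include 1. Ccdc88b had ratios of 1.79 and 0.575. Anxa1 had ratios of 0.531 and 2.87, Ctsh of 0.498 and 2.41, Ctss of 0.622 and 1.56, and Tmem176b of 0.408 and 4.17. These 4 genes are also expressed by myeloid cells. The summed myeloid markers stood at 3741 and 2891 CPM in activated and at 1976 and 2453 CPM in other conventional cells. Without cells holding other-lineage UMIs Ctss had ratios of 1.11 and 0.824 and Ctsh of 0.0809 and 0.140, so that neither kept its pattern of below 1 in activated and above 1 in other cells.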

How the results depend on the processing

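No paired analysis was possible because each dose has 1 library and the labels give no shared replicate number. The lower share at 4 Gy kept its direction in every alternative run, with ratios of 0.480 of barcodes and 0.527 of Cd4-positive T cells when at least 2 activation UMIs were asked for, and 0.603 to 0.654 and 0.621 to 0.759 otherwise. The ratio of 0.759, with at least 2 UMIs of Cd4 asked for, had limits of 0.531 to 1.09, which include 1. The count of genes at least 1.5-fold higher (309) was 170 with members thinned to 1000 UMIs, 95 with a pseudocount of 50 CPM, 633 with a minimum of 10 UMIs and 861 with none. The count of lower genes (348) was 177, 50, 716 and 960 in the same order, 543 with a pseudocount of 2 CPM and 545 as a mean over cells. The naive list had a median of 0.26 with at least 2 activation UMIs. The proliferation list had −0.24 with 50 CPM and turned to 0.27 without other-lineage members. The interferon gamma list turned to -0.0679 when thinned, −0.18 as a mean over cells, −0.14 without other-lineage members and −0.14 without members holding 5 or more B-cell and myeloid UMIs, an alternative chosen after seeing the data. Without other-lineage members the log2 ratios turned to −0.55 for Cdkn1a, −0.11 for Gzmb, 0.84 for Apoe, 0.60 for Tcf4 and 0.37 for Stmn1, and in the alternative added later to 0.54 for Apoe, 0.44 for Tcf4 and 0.26 for Fabp5. The cause was not tested. Over all alternatives 56 of 252 list medians, from 19 of 23 lists, and 10 of 506 gene values, from 7 of 46 genes, had the other sign. In members 3 UMIs make 4.25 CPM at 0 Gy and 4.66 at 4 Gy, and lower levels could not be read.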

Other observations

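Ribosomal protein genes, a list of names added after seeing the data, had a median log2 difference of −0.46 at 0 Gy and −0.39 at 4 Gy between activated and other conventional CD4 T cells, beside 0.22 and 0.15 over all genes. Of 78 genes 3 were at least 1.5-fold lower in both libraries and none higher, beside 1.67% and 8.60% of all genes. Between the doses their median in members was 0.07, with 14 genes at least 1.5-fold higher and 1 lower, beside 5.15% and 5.80% of all genes. In other conventional CD4 T cells 13 of 78 were higher and 5 lower, beside 8.93% and 5.19% of all genes. In Foxp3-positive CD4 T cells 11 of 62 were higher and 2 lower, beside 13.9% and 9.47%. In the CD8 T cells with activation genes 13 of 82 were higher and 2 lower, beside 3.59% and 1.39%. Of 9 measured genes of the TGF-beta and retinoid list 2 were higher in activated than in other conventional cells in both libraries and 1 lower, with a median of 0.40 and 0.16, beside 0.22 and 0.15 over all genes. Between the doses Tgfbr1, a TGF-beta receptor chain, and Socs2, a feedback inhibitor of cytokine signalling, had log2 ratios of −0.71 and −0.84 in members, and Gadd45b, a stress gene, of 0.82. Zfp36, which destabilises cytokine RNA, had a log2 ratio of 0.77.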
